A study of Mus musculus with 7 samples.

Results

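The 43 genes described here make, modify, burn, sense or export cholesterol and fatty acids. They were listed by symbol: 7 enzymes of the mevalonate arm, 10 enzymes from squalene to cholesterol, 5 genes of the SREBP system, 3 of fatty acid synthesis, 7 of fatty acid elongation and desaturation, 7 of mitochondrial fatty acid oxidation and 4 of sterol sensing and export. All 43 were found among the 53465 gene IDs of the count table, and all 43 were among the 14784 genes that passed the filter on low counts. RNA was sequenced from CD4+CD25+ cells that flow cytometry had sorted from mouse liver, the markers by which regulatory T cells (Treg) are isolated. WT_NCD denotes C57BL/6 wild-type mice given a normal control diet (2 libraries), WT_MCD wild-type mice given a diet deficient in methionine and choline (2 libraries), and KO_MCD mice without CD73 given the deficient diet (3 libraries). Diets lasted 4 weeks in all 3 groups. CD73, encoded by Nt5e, is a cell-surface enzyme that makes adenosine from extracellular AMP, and the deficient diet is widely used as a model of fatty liver with inflammation. There was no knockout group on the control diet, so KO_MCD against WT_NCD differs in diet and genotype at once.

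Cholesterol is built from acetyl-CoA through mevalonate and squalene. When membrane sterol is low, SCAP escorts SREBP2 from the endoplasmic reticulum to the Golgi, where it is cut and released to switch on the sterol enzymes, while INSIG proteins hold SCAP back when sterol is plentiful. SREBP1 drives fatty acid synthesis and desaturation in the same manner, and the oxysterol receptors LXRα and LXRβ turn on cholesterol export and Srebf1. Treg are known for a reliance on fatty acid oxidation, and the mevalonate pathway is known to be needed for their suppressive function.

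Total counts ran from 19731501 to 24398738 per library. Levels are given as CPM, read counts scaled to the library size after TMM normalisation, and changes as log2 fold changes with standard error (SE) from edgeR's quasi-likelihood test, adjusted by Benjamini-Hochberg over all 14784 genes with a threshold of 0.05. Whether the libraries of a group come from different animals is not in the labels, and p-values therefore cover the spread between these libraries alone, which may be technical. Which part of Nt5e was deleted is not stated in the labels. Nt5e had 87.6 to 243 CPM in the 4 wild-type libraries and 5.88 to 14.5 CPM in the 3 knockout libraries. Treg markers were present in every library: Foxp3, the defining transcription factor, had 108 to 287 CPM and Il2ra, which encodes CD25, 193 to 791 CPM. RNA of other cells was present too. The summed level of 10 macrophage and Kupffer cell markers was 1137 to 10136 CPM in WT_NCD, 2282 to 31258 CPM in WT_MCD and 7093 to 12397 CPM in KO_MCD. None of the 10 was at 0 throughout a group. The macrophage lysozyme gene Lyz2 gave most of these sums, with 7757 and 845 CPM in WT_NCD libraries and 6151 to 11324 CPM in KO_MCD. By fitted change, 4 of the 10 were higher and 6 lower in KO_MCD against WT_NCD, with a median of -1.12 on the log2 scale. Library WT_MCD 2 stood apart with the 31258 CPM and with Lyz2 at 26675 CPM. It also had the lowest sum of 8 T cell markers (3593 CPM, against 4213 to 9372 CPM elsewhere). The summed level of 10 proliferation markers was 878 to 1437 CPM in WT_NCD, 455 to 531 CPM in WT_MCD and 294 to 446 CPM in KO_MCD. The sum of 6 natural killer cell markers was 38.2 and 49.5 CPM in WT_NCD, with Ncr1 and Klre1 at 0, against 138 to 299 CPM in the other 5 libraries. That of 6 dendritic cell markers was 55.4 and 79.3 CPM, with Clec9a at 0, against 183 to 846 CPM. Monocyte and neutrophil markers (6 genes) summed to 981 to 1454 CPM in WT_NCD, 1341 to 2534 CPM in WT_MCD and 896 to 1096 CPM in KO_MCD. Most of each sum was Ccr2, with 699 to 1685 CPM. The mean log2(CPM + 1) of the 6 genes weighs them more evenly. It was 5.36 and 3.16 in WT_NCD libraries, 4.39 and 7.72 in WT_MCD and 4.88 to 5.30 in KO_MCD. For 6 B cell markers, the mean log2(CPM + 1) was 7.40 in KO_MCD 1 and 7.32 in KO_MCD 2. It was 4.64 to 5.72 in the other 5 libraries. Their summed level had another order, with 2079 and 2769 CPM in WT_NCD libraries, 1822 and 1210 in WT_MCD and 2113, 1934 and 1168 in KO_MCD. Ighm gave most of that sum, with 1943 and 2663 CPM in WT_NCD libraries and 903 to 1305 CPM in KO_MCD. Lists of 6 cholangiocyte and 6 endothelial markers each rested mostly on 1 gene, Spp1 and Pecam1. WT_NCD 2 was an exception, with Epcam at 5.20 CPM of a cholangiocyte sum of 5.88 CPM. Epcam had 3.69 CPM in WT_NCD 1 and 10.9 to 16.7 CPM in the other 5 libraries. Krt19, Krt7, Sox9 and Lyve1 were at 0 outside WT_MCD 2. In such bulk libraries, fewer cells of a type and less RNA per cell cannot be told apart.

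The deficient diet in wild-type mice was compared first. Squalene epoxidase (Sqle) and the desaturase gene Scd1 were the members furthest above the control diet, and Insig2 and Acadvl were lower in both WT_MCD libraries than in both WT_NCD libraries. By fitted change, 27 of the 43 genes were higher in WT_MCD (52.3% of all genes) and 16 lower, with a median of 0.27 on the log2 scale against 0.04 over all genes tested. None of the 43 passed the adjusted threshold with edgeR (0% of all genes called), and their smallest adjusted p was 0.712. At an unadjusted p under 0.05 there were 2, both higher, against 6.00% of all genes. DESeq2 called 1 of the 43, Sqle (2.07% of all genes), and limma voom none (0%). The 2 groups did not overlap for 14 of the 43 genes, against 31.6% of all genes, with 11 higher (16.8% of all genes) and 3 lower (14.8%). Without WT_MCD 2, 15 of the 43 were higher, the median was -0.12 and no member had an unadjusted p under 0.05, so the direction of the median rested on that library.

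CD73-deficient cells on the deficient diet were then set against wild-type cells on the same diet. The cholesterol exporter gene Abcg1, the LXRβ gene Nr1h2, the elongase genes Elovl1 and Elovl5 and the oxidation genes Acadm and Hadhb were lower in all 3 KO_MCD libraries than in both WT_MCD libraries. By fitted change, 14 genes were higher (47.9% of all genes) and 29 lower, with a median of -0.22 against -0.03 over all genes. None of the 43 passed the adjusted threshold with edgeR (0% of all genes called, smallest adjusted p = 1), DESeq2 (0.237%) or limma voom (0%). At an unadjusted p under 0.05 there was 1, Abcg1, against 3.25% of all genes. The groups did not overlap for 10 genes, against 18.0% of all genes, with 0 higher (8.37%) and 10 lower in KO_MCD (9.66%): the 6 just named and Acat2, Tm7sf2, Nsdhl and Scap. Without WT_MCD 2, 23 of the 43 genes were higher and the median was 0.03. The single remaining WT_MCD library then lay below all KO_MCD libraries for 11 members (21.6% of all genes) and above them for 12 (24.1%).

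KO_MCD against WT_NCD uses the same libraries again, the KO_MCD libraries of the second comparison and the WT_NCD libraries of the first, so the 3 comparisons are not independent. Scd1, Sqle, Cyp51 and Srebf2 were higher in all 3 KO_MCD libraries than in both WT_NCD libraries, and Elovl5, Elovl6, Insig2, Abcg1, Nr1h2, Acadvl, Lss and Tm7sf2 were lower. These 12 non-overlapping genes of 43 stand against 26.1% of all genes, the 4 higher against 13.4% and the 8 lower against 12.8%. By fitted change 25 genes were higher (52.8% of all genes) and 18 lower, with a median of 0.16 against 0.06 over all genes, and the median was -0.08 without WT_NCD 1. None passed with edgeR (0% of all genes called, smallest adjusted p of the 43 = 0.251), DESeq2 called 2, Scd1 and Sqle (3.80% of all genes), and limma voom none (0%). At an unadjusted p under 0.05 there were 4, Scd1 and Sqle higher and Elovl5 and Elovl6 lower, against 8.97% of all genes.

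**Figure D1:**
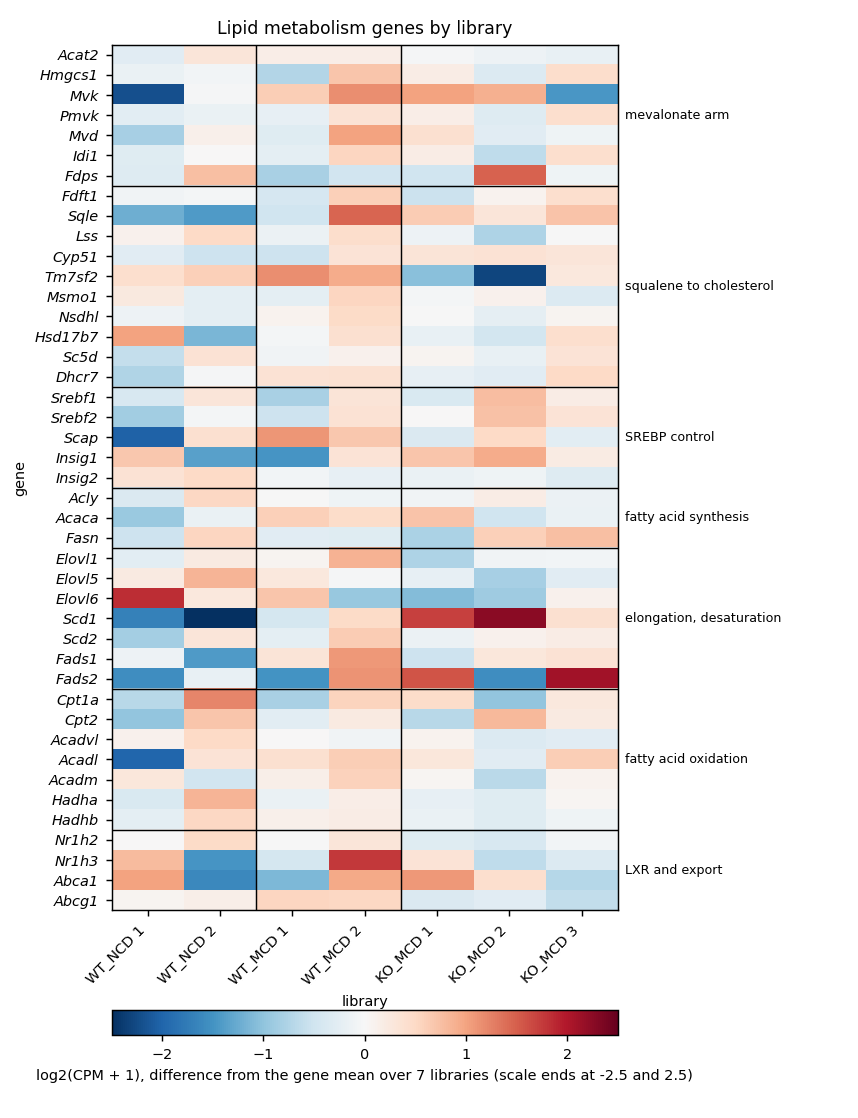
Level of the 43 genes (rows, grouped by role) in the 7 libraries (columns), as log2(CPM + 1) minus the gene's mean over the 7 libraries, with the colour scale ending at -2.5 and 2.5. Red is above and blue below the gene's own mean: Sqle and Scd1 are blue in both WT_NCD libraries, and the sterol enzyme rows are mostly red in WT_MCD 2.

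Levels within the set spanned a wide range. Per kilobase of exon, Acly was the most abundant member, with 115 CPM per kb on average over the 7 libraries. Nr1h2 followed with 70.8, Elovl5 with 67.3, Hadhb with 44.3 and Abcg1 with 39.5 CPM per kb. At the other end stood Fads2 with 1.15, Acaca with 0.514 and Fdps with 0.248 CPM per kb. The spread within a group was large: the median ratio of the highest to the lowest library of a group was 1.72 in WT_NCD, 1.52 in WT_MCD and 1.73 in KO_MCD, leaving out genes with a library at 0. WT_MCD 2 held the highest value of the 7 libraries for 14 members and the lowest for 0, and it lay above WT_MCD 1 for 32 of 43. WT_NCD 2 was the highest library for 11 members, Acly, Elovl5, Hadha, Hadhb and Cpt1a among them, and also had the highest sums of T cell markers (9372 CPM) and proliferation markers (1437 CPM).

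Promoters of the set were read from the RefSeq promoter table (GRCm38.p6), which matched 36 of the 43 genes with 46 windows of the 250 bases before a start. Fdft1, Fdps, Fads1, Scd2, Abcg1, Sqle and Scd1 were not matched. Each motif was searched on both strands. The CCAAT box bound by NF-Y, a known partner of SREBP2, was in 13 of the 17 windows of sterol enzymes (76.5%) and in 1 of 7 windows of oxidation genes (14.3%), against 33.8% of 32851 promoters. The Sp1 box GGGCGG was in 67.4% of member windows against 32.7%, and the E-box CACGTG in 15.2% against 6.02%. The sterol regulatory element as TCACNCCAC was in 1 member window, that of Hmgcs1 (2.17% against 1.05%), and its shorter form CACNCCAC, which lies inside the longer one, in 3, those of Acat2, Hmgcs1 and Insig1 (6.52% against 5.29%). The LXR element DR4, which is AGGTCA repeated after a gap of 4 bases, was in no member window and in 0.0152% of all promoters, and AGGTCA alone in 23.9% of member windows against 14.0%. A match here is a run of letters, not a binding site. The Elovl5 window is printed without its last base, which lies in an exon, and so has 249 bases. The windows below stand for a sterol enzyme (Hmgcs1, chr13:119690101-119690350, plus strand), an INSIG gene (Insig2, chr1:121332590-121332839, minus strand), an elongase gene (Elovl5, chr9:77917115-77917363, plus strand) and an LXR gene (Nr1h2, chr7:44553966-44554215, minus strand), and capitals mark CACNCCAC, CCAAT and CACGTG or their complements.
Hmgcs1: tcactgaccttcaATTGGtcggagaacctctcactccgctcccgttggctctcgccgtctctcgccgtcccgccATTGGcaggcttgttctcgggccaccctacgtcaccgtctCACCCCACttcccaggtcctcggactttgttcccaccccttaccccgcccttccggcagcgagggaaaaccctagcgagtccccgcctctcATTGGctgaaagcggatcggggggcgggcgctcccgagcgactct
Insig2: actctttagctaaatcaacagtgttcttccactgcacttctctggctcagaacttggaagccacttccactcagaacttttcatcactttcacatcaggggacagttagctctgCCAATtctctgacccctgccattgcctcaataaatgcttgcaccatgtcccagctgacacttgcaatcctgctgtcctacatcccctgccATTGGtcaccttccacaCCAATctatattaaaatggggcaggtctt
Elovl5: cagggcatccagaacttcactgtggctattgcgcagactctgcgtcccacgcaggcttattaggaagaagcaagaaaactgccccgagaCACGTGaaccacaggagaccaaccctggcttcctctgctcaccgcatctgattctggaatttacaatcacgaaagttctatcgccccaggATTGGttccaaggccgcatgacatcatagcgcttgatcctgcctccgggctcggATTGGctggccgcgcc
Nr1h2: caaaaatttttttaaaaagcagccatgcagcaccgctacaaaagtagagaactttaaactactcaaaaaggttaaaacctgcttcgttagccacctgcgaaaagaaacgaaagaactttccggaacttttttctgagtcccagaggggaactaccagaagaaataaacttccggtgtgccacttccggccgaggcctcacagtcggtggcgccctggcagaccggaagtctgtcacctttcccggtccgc
The Hmgcs1 window held 1 CACNCCAC and 3 CCAAT, the Insig2 window 3 CCAAT, the Elovl5 window 2 CCAAT and 1 CACGTG, and the Nr1h2 window none of the 3.

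The mevalonate arm was read through Hmgcs1, which makes HMG-CoA, and Idi1, which isomerises the building block of isoprenoids. Hmgcs1 (chromosome 13, 119690379 to 119708260, GRCm38) had 40.5 and 43.7 CPM in WT_NCD libraries, 27.0 and 74.3 in WT_MCD and 51.9, 35.7 and 62.7 in KO_MCD. Idi1 had 33.4 and 41.7 CPM in WT_NCD libraries, 34.6 and 60.5 in WT_MCD and 47.1, 26.4 and 55.4 in KO_MCD. Both genes overlapped between all groups, and for both WT_MCD 2 was the highest library. The Hmgcs1 log2 fold change was 0.27 (SE 0.53) in WT_MCD against WT_NCD and -0.02 (SE 0.49) in KO_MCD against WT_MCD. Without WT_MCD 2 these were -0.64 and 0.89, both in the other direction. Of the other 5 enzymes, Acat2, which condenses acetyl-CoA, had 52.4 to 79.8 CPM over the 7 libraries, Pmvk 34.9 to 58.7 CPM and Mvd, the decarboxylase, 19.1 to 71.2 CPM. Mevalonate kinase (Mvk) was low, with no count in WT_NCD 1, which allows up to 0.152 CPM, and 0.667 to 9.29 CPM elsewhere. Fdps, the farnesyl diphosphate synthase gene, had 0 to 3.85 CPM. Its annotated exons overlap those of the gene Gm43738 on the same strand, so its level is uncertain. The other genes of sterol synthesis and uptake that are not among the 43 were counted as well. Of 17 such genes 14 were tested and none passed the adjusted edgeR threshold in any comparison, with 10 higher and 4 lower in WT_MCD against WT_NCD, and 4 higher and 10 lower in KO_MCD against WT_MCD. Of this list, Soat1, Lipa and Ebp had an unadjusted p under 0.05 in a comparison. Soat1, which esterifies cholesterol for storage, had 128 and 105 CPM in WT_NCD libraries, 123 and 331 in WT_MCD and 115 to 120 in KO_MCD. Lipa, the lysosomal acid lipase that frees cholesterol from esters, had 392 and 584 CPM in WT_NCD libraries, 299 and 1717 in WT_MCD and 300 to 414 in KO_MCD. Soat1 and Lipa had that p in KO_MCD against WT_MCD, and for both the high library was WT_MCD 2. Ebp, the sterol isomerase, had 50.8 and 62.4 CPM in WT_NCD libraries, 46.2 and 45.7 in WT_MCD and 18.0, 18.8 and 40.4 in KO_MCD, below all 4 wild-type libraries, with a log2 fold change of -1.14 (SE 0.44, edgeR adjusted p = 0.538) against WT_NCD.

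From squalene onward, Sqle stood apart from its neighbours. Squalene epoxidase carries out the first oxygen-dependent step and is a rate-limiting enzyme of the pathway. Sqle (chromosome 15, 59315077 to 59331192, GRCm38) had 20.1 and 17.7 CPM in WT_NCD libraries, 34.1 and 134 in WT_MCD and 76.2, 60.3 and 80.5 in KO_MCD. All 5 libraries of the deficient diet lay above both libraries of the control diet, as did the sums of natural killer and dendritic cell markers, and the part of those cells in the Sqle level was not tested. Means with SD were 18.9 ± 1.76 CPM for WT_NCD (n = 2), 84.3 ± 71.0 CPM for WT_MCD (n = 2) and 72.3 ± 10.6 CPM for KO_MCD (n = 3). The log2 fold change came to 2.16 (SE 0.62, edgeR adjusted p = 0.712) in WT_MCD against WT_NCD, and it was 0.86 without WT_MCD 2 and 2.81 without WT_MCD 1. In KO_MCD against WT_NCD it was 1.94 (SE 0.58, edgeR adjusted p = 0.434), and leaving out each of the 7 libraries in turn gave 1.85 to 2.05. DESeq2 called Sqle in both comparisons, with adjusted p = 0.0454 and 0.0297. For KO_MCD against WT_MCD it was -0.22 (SE 0.54), and 1.1 without WT_MCD 2. Squalene synthase (Fdft1), the enzyme just before Sqle, had 41.2 and 42.0 CPM in WT_NCD libraries, 32.3 and 66.7 in WT_MCD and 29.9, 46.6 and 59.1 in KO_MCD, with groups that overlapped. Per kilobase, the ratio of Sqle to Hmgcs1 was 0.412 and 0.334 in WT_NCD, 1.05 and 1.5 in WT_MCD, and 1.22, 1.40 and 1.06 in KO_MCD. Sqle was thus below Hmgcs1 per kilobase in both control-diet libraries and above it in the other 5. The ratio of Sqle to Fdft1 was 0.372 and 0.32 in WT_NCD, 0.805 and 1.54 in WT_MCD, and 1.94, 0.987 and 1.04 in KO_MCD. It was higher in all 5 deficient-diet libraries than in WT_NCD but stayed below 1 in WT_MCD 1 and KO_MCD 2.

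Lanosterol 14α-demethylase (Cyp51) was steady within KO_MCD. It had 95.6 and 81.0 CPM in WT_NCD libraries, 81.3 and 148 in WT_MCD and 146, 151 and 144 in KO_MCD. The 3 knockout libraries lay above both WT_NCD libraries while of the WT_MCD libraries 1 was at the level of WT_NCD and the other at that of KO_MCD. The log2 fold change came to 0.73 (SE 0.32, edgeR adjusted p = 0.561) in KO_MCD against WT_NCD and 0.36 (SE 0.32) in KO_MCD against WT_MCD, the latter 0.03 without WT_MCD 1 and 0.85 without WT_MCD 2. Dhcr7, the last step on one branch to cholesterol, had 50.1 and 83.7 CPM in WT_NCD libraries, 110.1 and 110.5 in WT_MCD and 73.3, 70.0 and 121 in KO_MCD. WT_MCD lay above WT_NCD for it, with a log2 fold change of 0.72 (SE 0.41, edgeR adjusted p = 0.812) that was 0.40 without WT_NCD 1 and 1.15 without WT_NCD 2. Tm7sf2, a sterol reductase gene whose exons overlap Vps51 on the same strand, had 6.37 and 7.34 CPM in WT_NCD libraries, 11.3 and 9.50 in WT_MCD and 1.70, 0.136 and 5.62 in KO_MCD. Lss, Msmo1, Nsdhl, Hsd17b7 and Sc5d, which close the ring and trim lanosterol, had 12.1 to 192 CPM over the 7 libraries except Hsd17b7 in WT_NCD 2 at 8.85 CPM, and none of the 5 had an unadjusted p under 0.05 in any comparison. The summed level of all 17 sterol enzymes was 641 and 772 CPM in WT_NCD libraries, 721 and 1137 in WT_MCD and 859, 756 and 978 in KO_MCD. WT_MCD 2 was the highest library for 8 of the 17 and lay above WT_MCD 1 for 15. It was also the library with the most macrophage RNA, and the part of that RNA in these sums was not tested.

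**Figure D2:**
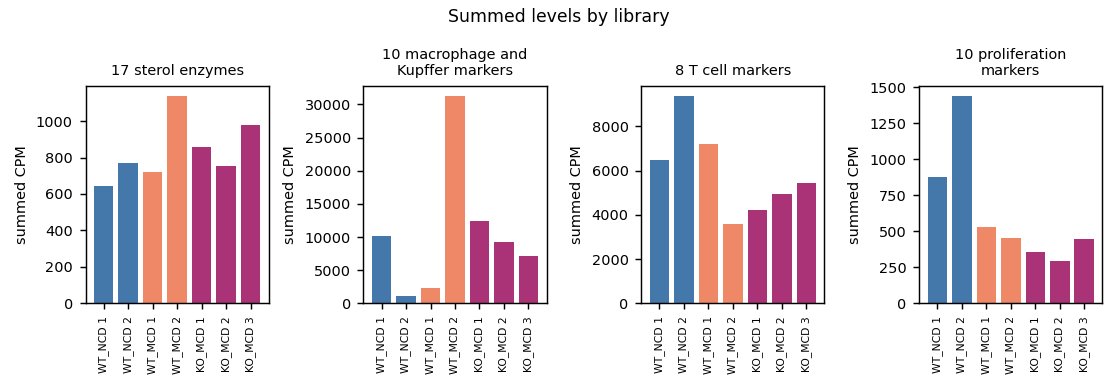
Summed CPM (linear axes from 0) in each of the 7 libraries for the 17 sterol enzymes, 10 macrophage and Kupffer cell markers, 8 T cell markers and 10 proliferation markers, with 1 bar per library. WT_MCD 2 has the highest bar for the sterol enzymes (1137 CPM) and for the macrophage markers (31258 CPM), and the lowest for T cell markers (3593 CPM).

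Among the genes of the SREBP system, Srebf2, which encodes the main driver of the sterol enzymes, was the most abundant per kilobase, with 33.9 CPM per kb on average. Srebf2 (chromosome 15, 82147181 to 82205379, GRCm38) had 125 and 222 CPM in WT_NCD libraries, 160 and 295 in WT_MCD and 232, 381 and 292 in KO_MCD. KO_MCD lay above WT_NCD, with a log2 fold change of 0.80 (SE 0.41, edgeR adjusted p = 0.599), while WT_MCD overlapped both. It was 0.44 without WT_NCD 1 and 1.27 without WT_NCD 2. Srebf1 had 22.7 and 37.3 CPM in WT_NCD libraries, 16.7 and 38.0 in WT_MCD and 22.7, 52.1 and 34.1 in KO_MCD, with overlap throughout. Srebf1 made up 11.1% to 18.8% of Srebf1 and Srebf2 together per kilobase in the 7 libraries, with both WT_NCD libraries (18.8% and 17.7%) above the other 5. Scap, the escort, had 1.67 and 13.2 CPM in WT_NCD libraries, 22.1 and 16.2 in WT_MCD and 7.38, 14.3 and 8.0 in KO_MCD. It was highest in WT_MCD, with a log2 fold change of 1.36 (SE 0.98) against WT_NCD that was 0.54 without WT_NCD 1 and 3.52 without WT_NCD 2.

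The 2 INSIG genes differed in how evenly their libraries behaved. Insig1, itself a known SREBP target, had 108 and 25.7 CPM in WT_NCD libraries, 23.7 and 85.4 in WT_MCD and 110, 129 and 78.2 in KO_MCD. Within each wild-type group 1 library was low and the other high, and KO_MCD overlapped both groups. Insig2 (chromosome 1, 121304353 to 121332589, GRCm38) had 43 and 46.9 CPM in WT_NCD libraries, 31.6 and 28.7 in WT_MCD and 29.1, 30.4 and 26.4 in KO_MCD. Its level on the deficient diet was below that on the control diet in all 5 libraries, with a log2 fold change of -0.58 (SE 0.36, edgeR adjusted p = 0.828) in WT_MCD and -0.65 (SE 0.33, edgeR adjusted p = 0.597) in KO_MCD against WT_NCD. Leaving out each library in turn moved the first to between -0.66 and -0.51 and the second to between -0.71 and -0.58. Per kilobase, Insig1 was 38.1% to 82.7% of the pair.

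**Figure D3:**
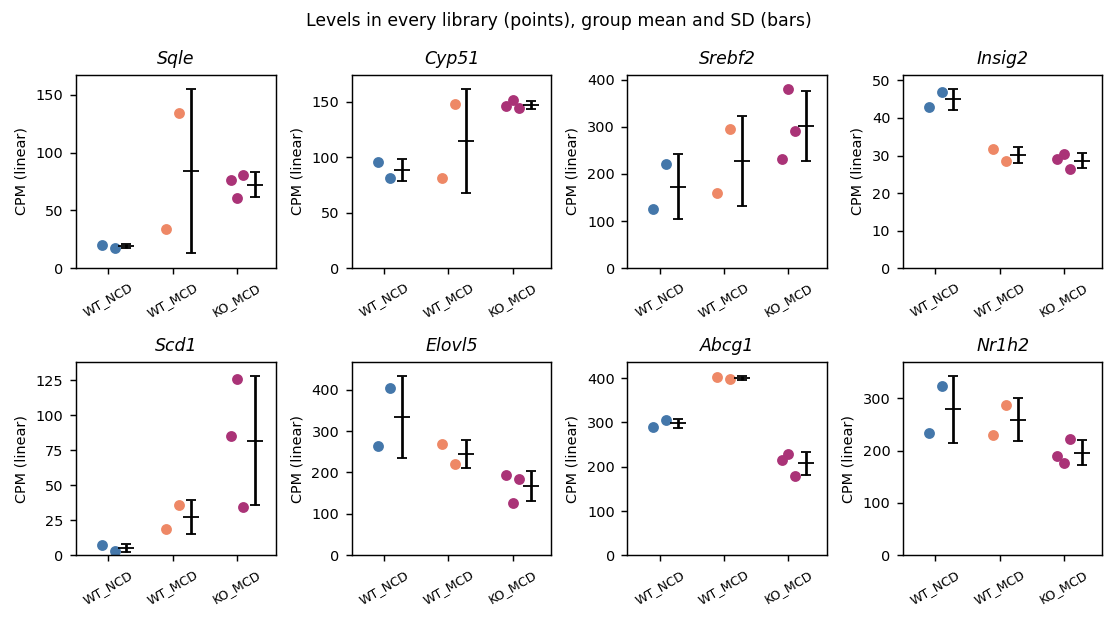
Level of 8 genes in CPM (linear axes from 0) in WT_NCD (2 libraries), WT_MCD (2) and KO_MCD (3). Points are libraries, and the bar beside them is the group mean with SD: Insig2 is between 26.4 and 31.6 CPM in the 5 libraries of the deficient diet and 43 or more in WT_NCD, and Abcg1 has 3 separate groups.

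Fatty acid synthesis begins with ATP citrate lyase (Acly), which makes cytosolic acetyl-CoA, followed by acetyl-CoA carboxylase (Acaca) and fatty acid synthase (Fasn). Acly had 461 and 853 CPM in WT_NCD libraries, 594 and 554 in WT_MCD and 562, 678 and 535 in KO_MCD. Both WT_NCD libraries bracketed all the others, and the log2 fold change was -0.19 (SE 0.34) in WT_MCD against WT_NCD and 0.04 (SE 0.31) in KO_MCD against WT_MCD. The first was -0.57 without WT_NCD 1 and 0.32 without WT_NCD 2, and the second -0.07 without KO_MCD 2 and 0.13 without WT_MCD 1. Fasn had 32.2 and 68.2 CPM in WT_NCD libraries, 38.1 and 38.0 in WT_MCD and 26.8, 71.2 and 79.6 in KO_MCD. The knockout libraries were split for it, 1 below both WT_MCD libraries and 2 above. Acaca had 3.74 and 7.09 CPM in WT_NCD libraries, 12.7 and 11.4 in WT_MCD and 13.8, 5.44 and 7.15 in KO_MCD. WT_MCD lay above WT_NCD, with a log2 fold change of 1.16 (SE 0.82, edgeR adjusted p = 0.847) that was 0.77 without WT_NCD 1 and 1.70 without WT_NCD 2.

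Among the desaturases, which put double bonds into fatty acids, Scd1 had the largest difference of any member with counts in every library. Stearoyl-CoA desaturase 1 makes oleate and palmitoleate and is a known target of SREBP1 and LXR. Scd1 (chromosome 19, 44394455 to 44407879, GRCm38) had 7.28 and 3.01 CPM in WT_NCD libraries, 18.5 and 36.1 in WT_MCD and 85.3, 126 and 34.2 in KO_MCD. All 5 deficient-diet libraries lay above both control-diet libraries, and KO_MCD 3 fell within the range of WT_MCD. Means with SD were 5.15 ± 3.03 CPM for WT_NCD (n = 2), 27.3 ± 12.4 CPM for WT_MCD (n = 2) and 81.9 ± 46.0 CPM for KO_MCD (n = 3). The log2 fold change came to 2.41 (SE 0.74, edgeR adjusted p = 0.746) in WT_MCD against WT_NCD. It was 1.58 (SE 0.68, edgeR adjusted p = 1) in KO_MCD against WT_MCD and 3.99 (SE 0.77, edgeR adjusted p = 0.251) in KO_MCD against WT_NCD. The last passed the threshold with DESeq2 (adjusted p = 3.04e-06) and with edgeR without the low-count filter (adjusted p = 0.00308), and it was 3.5 to 4.76 with each library left out in turn.

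Scd1 is abundant in hepatocytes and adipocytes, and the markers of both were read in these libraries. Of 4 adipocyte markers, Plin1, Lep and Cidec had no count in any library, and the sum was at most 1.03 CPM. The sum of 10 hepatocyte markers was 330 to 578 CPM in WT_NCD, 256 to 282 CPM in WT_MCD and 167 to 238 CPM in KO_MCD. Ass1 alone gave 163 to 566 CPM of it. The other 9 summed to 37.8 and 11.5 CPM in WT_NCD libraries, 3.44 and 45.9 in WT_MCD and 0.0971, 3.53 and 4.38 in KO_MCD, where Apoa1, Ttr, Serpina1b, Fgb, Cps1 and Hpx were at 0 throughout. The macrophage marker sum was highest in WT_MCD 2, where Scd1 was below 2 of the 3 KO_MCD libraries. The sums of natural killer and dendritic cell markers were lower in both WT_NCD libraries than in the other 5. KO_MCD 1 and KO_MCD 2, the libraries with the most Scd1, also had the highest mean log2(CPM + 1) of 6 B cell markers. The summed CPM of those markers was highest in WT_NCD 2, the library with the least Scd1. The part of any of these cells in the Scd1 levels was not tested. Scd2, the related desaturase next to Scd1 on chromosome 19, had 17.9 and 41.0 CPM in WT_NCD libraries, 27.7 and 51.7 in WT_MCD and 29.7, 35.4 and 37.9 in KO_MCD, with groups that overlapped. Scd1 was 31.2% and 7.57% of Scd1 and Scd2 together per kilobase in WT_NCD, 42.8% and 43.8% in WT_MCD, and 76.2%, 79.9% and 50.2% in KO_MCD. These shares did not overlap between the 3 groups.

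**Figure D4:**
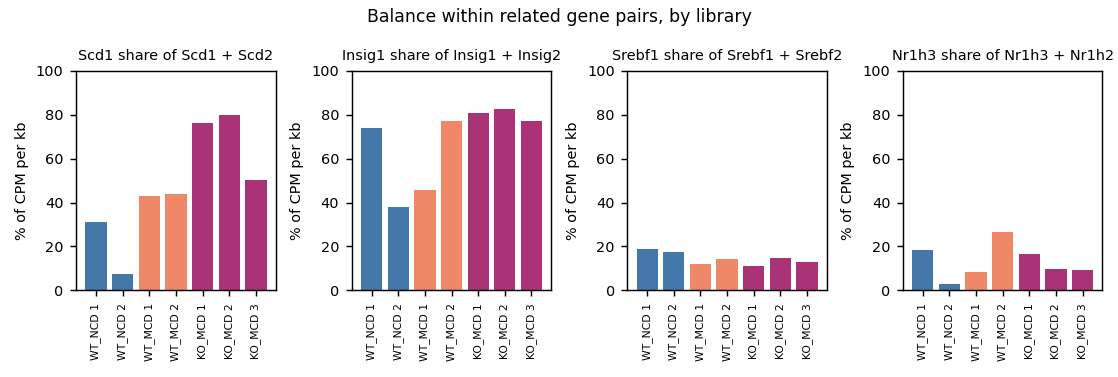
Share of the first gene in the summed CPM per kb of 4 related gene pairs (axes from 0 to 100%), 1 bar per library. The Scd1 share is lowest in the WT_NCD libraries (31.2% and 7.57%) and highest in KO_MCD (50.2% to 79.9%), while the Srebf1 share stays between 11.1% and 18.8%.

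The front-end desaturase genes Fads1 and Fads2, which make polyunsaturated fatty acids, were low. Fads1 had 9.46 and 3.26 CPM in WT_NCD libraries, 13.3 and 23.0 in WT_MCD and 6.99, 13 and 13.6 in KO_MCD, with WT_MCD above WT_NCD (log2 fold change 1.51, SE 0.79). That change was 0.95 without WT_NCD 2 and 2.47 without WT_NCD 1. Fads2 had 0 and 1.59 CPM in WT_NCD libraries, 0.0465 and 5.46 in WT_MCD and 7.82, 0 and 11.7 in KO_MCD. Its levels varied within every group from at or near 0 to above 1 CPM, and a library with no count allows up to 0.152 CPM in WT_NCD 1 and 0.136 CPM in KO_MCD 2.

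Elongases, which add carbons in pairs, were described next. Elovl5, which extends polyunsaturated fatty acids, was the third most abundant member per kilobase. Elovl5 (chromosome 9, 77917364 to 77984519, GRCm38) had 264 and 403 CPM in WT_NCD libraries, 268 and 220 in WT_MCD and 194, 126 and 184 in KO_MCD. The knockout libraries lay below all 4 wild-type libraries. The log2 fold change came to -0.54 (SE 0.31, edgeR adjusted p = 1) against WT_MCD and -0.99 (SE 0.31, edgeR adjusted p = 0.463) against WT_NCD. The first was -0.35 without WT_MCD 1 and the second -0.64 without WT_NCD 2. Elovl6, which extends palmitate to stearate, had 54.7 and 17.7 CPM in WT_NCD libraries, 24.1 and 7.09 in WT_MCD and 6.31, 7.34 and 15.8 in KO_MCD. KO_MCD lay below WT_NCD with a log2 fold change of -1.88 (SE 0.76, edgeR adjusted p = 0.544), which was -0.86 without WT_NCD 1, the library with 54.7 CPM. Elovl1, which extends very long saturated chains, had 63.1 and 89.2 CPM in WT_NCD libraries, 79.8 and 139 in WT_MCD and 44.2, 71.6 and 72.3 in KO_MCD. It was lower in KO_MCD than in WT_MCD by a log2 fold change of -0.80 (SE 0.38, edgeR adjusted p = 1), which was -0.35 without WT_MCD 2. Its exons overlap those of the cell cycle gene Cdc20 on the opposite strand. Of 20 other genes of fatty acid synthesis and esterification 16 were tested, and none passed the adjusted edgeR threshold in any comparison. In WT_MCD against WT_NCD, 13 were higher and 3 lower, and in KO_MCD against WT_MCD 3 were higher and 13 lower. Acsl1, which activates long-chain fatty acids with coenzyme A, had 5.01 and 7.73 CPM in WT_NCD libraries, 28.3 and 64.7 in WT_MCD and 33.2, 18.0 and 40.4 in KO_MCD. Its log2 fold change came to 2.87 (SE 0.64, edgeR adjusted p = 0.574) in WT_MCD and 2.26 (SE 0.59, edgeR adjusted p = 0.383) in KO_MCD, both against WT_NCD. Leaving out each library in turn moved the first to between 2.15 and 3.33 and the second to between 1.98 and 2.61. Agpat1, which acylates lysophosphatidic acid, had 6.37 to 7.73 CPM in WT_NCD and 12.2 to 27.0 CPM in the other 5 libraries, with a log2 fold change of 1.61 (SE 0.58) in WT_MCD against WT_NCD. Acsl1 and Agpat1 were both highest in WT_MCD 2, the library with the most macrophage RNA. The part of macrophages, natural killer cells or dendritic cells in their levels was not tested. Dgat2, which completes triglycerides, had 17.5 and 2.66 CPM in WT_NCD libraries, 19.6 and 20.8 in WT_MCD and 33.9 to 46.5 in KO_MCD. Its log2 fold change was 1.97 (SE 0.76) in KO_MCD against WT_NCD, 1.18 without WT_NCD 2 and 3.88 without WT_NCD 1. Thrsp, a lipogenic gene of liver and fat, had counts in only 2 libraries, WT_NCD 1 with 18.7 CPM and WT_MCD 1 with 1.86 CPM.

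**Figure D5:**
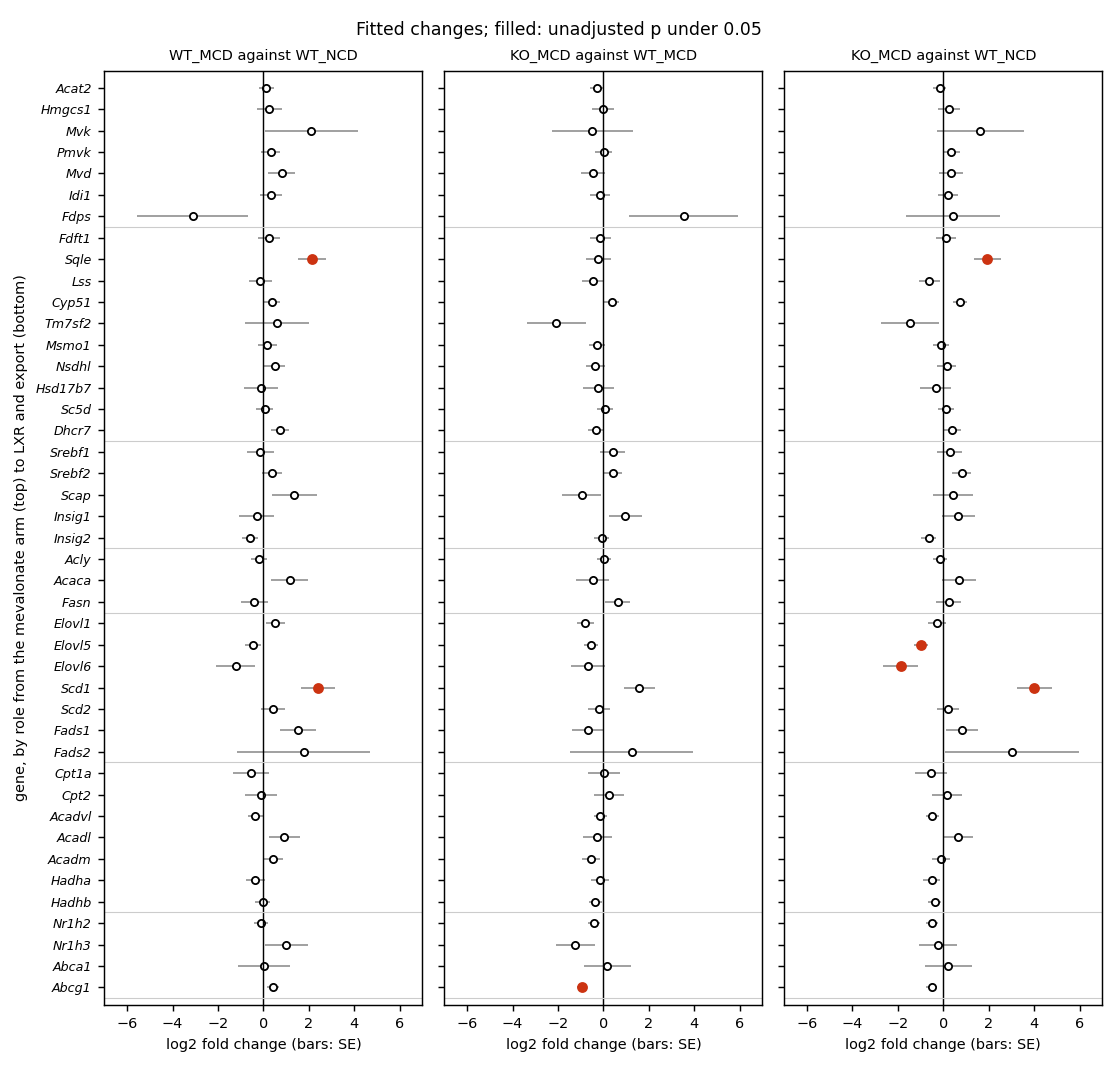
Fitted log2 fold change of the 43 genes in the 3 comparisons (horizontal axis, log2 scale, bars are SE), ordered by role from the mevalonate arm at the top to LXR and export at the bottom. Filled points have an unadjusted p under 0.05 with edgeR: Sqle and Scd1 in WT_MCD against WT_NCD, Abcg1 in KO_MCD against WT_MCD, and Sqle, Elovl5, Elovl6 and Scd1 in KO_MCD against WT_NCD.

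Fatty acid oxidation was read through Cpt1a, which controls entry into mitochondria, the acyl-CoA dehydrogenases Acadvl and Acadl, and Hadha, a subunit of the trifunctional protein. Cpt1a had 37.2 and 143 CPM in WT_NCD libraries, 34.2 and 89.4 in WT_MCD and 84.4, 30.1 and 72.7 in KO_MCD. Low and high libraries occurred in all 3 groups, and the log2 fold change was 0.01 (SE 0.71) in KO_MCD against WT_MCD, -0.48 without WT_MCD 1 and 0.87 without WT_MCD 2. Hadha had 173 and 407 CPM in WT_NCD libraries, 202 and 253 in WT_MCD and 196, 184 and 234 in KO_MCD. Its 7 libraries overlapped between groups, with WT_NCD 2 the highest. Acadvl had 82.2 and 108 CPM in WT_NCD libraries, 77.2 and 71.7 in WT_MCD and 81.5, 59.7 and 62.8 in KO_MCD. The 5 deficient-diet libraries lay below both control-diet libraries, though KO_MCD 1 by less than 1 CPM, and the log2 fold change was -0.35 (SE 0.32) in WT_MCD and -0.48 (SE 0.29) in KO_MCD against WT_NCD. Without WT_NCD 2 these were -0.14 and -0.27, and without WT_NCD 1 the first was -0.53. Acadl had 15.1 and 78.7 CPM in WT_NCD libraries, 82.4 and 96 in WT_MCD and 76.4, 51.2 and 95.4 in KO_MCD, and WT_NCD 1 was its one low library. Hadhb, the partner subunit of Hadha, had 241 to 413 CPM in the 4 wild-type libraries and 233 to 265 CPM in KO_MCD. Cpt2 had 14.8 to 54.0 CPM and Acadm 35.0 to 84.8 CPM over the 7 libraries. In the 7 oxidation members the median log2 fold change was -0.09 in WT_MCD against WT_NCD, -0.15 in KO_MCD against WT_MCD and -0.38 in KO_MCD against WT_NCD. Of 20 other oxidation genes 18 were tested and none passed the adjusted edgeR threshold. The fatty acid uptake gene Cd36 was the only one of them with an unadjusted p under 0.05, in WT_MCD against WT_NCD. It had 57.1 and 7.69 CPM in WT_NCD libraries, 34.9 and 504 in WT_MCD and 83.8, 61.6 and 116 in KO_MCD. Its high library, WT_MCD 2, was again the one with the most macrophage RNA.

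Sterol sensing and export gave the gene with the smallest p of any member in the knockout comparison on the deficient diet. Abcg1 moves cholesterol out of cells to high-density lipoprotein and is a classical LXR target. Abcg1 (chromosome 17, 31057675 to 31117988, GRCm38) had 290 and 305 CPM in WT_NCD libraries, 403 and 397 in WT_MCD and 215, 228 and 179 in KO_MCD. The 3 groups did not overlap: WT_MCD was highest, WT_NCD between, and KO_MCD lowest. Means with SD were 298 ± 10.9 CPM for WT_NCD (n = 2), 400.1 ± 4.31 CPM for WT_MCD (n = 2) and 207 ± 25.1 CPM for KO_MCD (n = 3). The log2 fold change came to 0.43 (SE 0.26, edgeR adjusted p = 0.826) in WT_MCD against WT_NCD. It was -0.95 (SE 0.24, edgeR adjusted p = 1) in KO_MCD against WT_MCD and -0.52 (SE 0.24, edgeR adjusted p = 0.571) in KO_MCD against WT_NCD. With each library left out in turn the second of these was -1.02 to -0.85.

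Abca1, the related exporter to lipid-poor apolipoprotein and also an LXR target, showed no such order. It had 24.7 and 3.22 CPM in WT_NCD libraries, 4.88 and 23.8 in WT_MCD and 26.0, 16.1 and 6.76 in KO_MCD, with a low and a high library in every group. Nr1h3, which encodes LXRα and is abundant in macrophages, had 39.7 and 7.43 CPM in WT_NCD libraries, 16.1 and 78.2 in WT_MCD and 28.5, 14.0 and 17.5 in KO_MCD. Its highest library was WT_MCD 2 and its lowest WT_NCD 2, which were also those with the most and the least macrophage marker RNA, and the part of macrophage RNA was not tested. Nr1h2, which encodes the broadly expressed LXRβ, had 233 and 323 CPM in WT_NCD libraries, 231 and 288 in WT_MCD and 189, 175 and 222 in KO_MCD. The knockout libraries were below all 4 wild-type libraries, with a log2 fold change of -0.41 (SE 0.27, edgeR adjusted p = 1) against WT_MCD and -0.51 (SE 0.27, edgeR adjusted p = 0.601) against WT_NCD. The first was -0.24 without WT_MCD 2 and the second -0.25 without WT_NCD 2. Per kilobase, Nr1h3 was 2.97% to 26.6% of the pair of LXR genes.

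Of 10 other LXR targets and partners 8 were tested and none passed the adjusted edgeR threshold. In WT_MCD against WT_NCD, 6 were higher and 2 lower, and in KO_MCD against WT_MCD 0 were higher and 8 lower. The latter count rested on WT_MCD 2. Without that library the log2 fold change was 1.01 for Apoe, 0.92 for Rxrb, 0.55 for Rxra, 0.08 for Nceh1 and 0.02 for Smpdl3a. Lpcat3 and Arl4c stayed below 0 with each library left out, and Abca7 was 0.17 without KO_MCD 3. Lpcat3, which puts polyunsaturated chains into phospholipids, had 26.5 and 35.4 CPM in WT_NCD libraries, 66.8 and 72.8 in WT_MCD and 36.3, 26.7 and 66.3 in KO_MCD. WT_MCD lay above WT_NCD for it, with a log2 fold change of 1.17 (SE 0.49, edgeR adjusted p = 0.808).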

How the data were processed

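Sorted CD4+CD25+ liver cells were sequenced as 7 RNA-seq libraries. The deposited table holds raw read counts per gene. The submitters' processing notes name HISAT2 2.1.0 and GRCm38. No source used here gives the counting tool, its annotation or its strand setting. Annotated exons of 15 of the 43 genes overlap another gene (5 on the same strand, 11 on the other), so those levels may hold a neighbour's reads. Columns were matched to samples by title, and no batch is labelled. Symbols and coordinates came from a GENCODE annotation of GRCm38, which named 53360 of 53465 IDs.

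Counts were fitted with edgeR 4.0.16 in R 4.3.3 (TMM, filterByExpr with a minimum count of 10, prior count 0.125, all 7 libraries, 1 coefficient per group). The fitted dispersion of 0.833 corresponds to 91.3% variation within groups. CPM per kb uses the union of exons. A count of 0 allows 3 counts, which covers counting error only. The fitting script was tested on simulated data. Its pass criterion was set at a dispersion far below the one fitted here, so it does not show which changes these libraries could detect. Alternatives were other scalings and filters, DESeq2 1.42.0, limma 3.58.1 voom, 2 groups alone, the replicate number as a block and each library left out. The 43 genes, the other lists and the rules were chosen with earlier results of these data known. Values in every library are given for representatives of each role and for members with an unadjusted p under 0.05, and other pathway genes are named at that p. Scap, Dhcr7, Tm7sf2, Fads1, Elovl1, Insig2 and Nr1h2's promoter window were picked after their values were seen.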

Additional observations from a re-analysis of the deposited data

How the results depend on the processing

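With edgeR no member passed the adjusted threshold in any comparison under other scalings, the stricter filter, the 2 groups alone or any library left out, and limma voom called none. Without the low-count filter, 54, 1 and 140 of all genes passed in WT_MCD against WT_NCD, KO_MCD against WT_MCD and KO_MCD against WT_NCD, with 1 member (Scd1) in the last. DESeq2 called 306, 35 and 562 genes, with 1 member (Sqle) in the first and 2 (Sqle and Scd1) in the last. Members at an unadjusted p under 0.05 in WT_MCD against WT_NCD numbered 1 with limma voom (6.12% of all genes), and 0 to 5 with each library left out (3.73% to 7.05%). In KO_MCD against WT_MCD they numbered 2 with upper quartile scaling, no filter, the stricter filter, DESeq2, limma voom and the 2 groups alone (2.99% to 4.53% of all genes), and 1 to 3 with each library left out (2.22% to 4.40%). No result with a test changed sign past the threshold. The median fold changes of the members changed sign without WT_MCD 2 or WT_NCD 1, as given above. The shifts were smaller than 0.42, the pooled SD between libraries of a group of the members' median log2 CPM. That SD is a spread of levels and not of fold changes. The causes of these differences were not tested.

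Whether same-numbered libraries were handled together is not in the labels. The deviations of same-numbered libraries had a correlation of -0.102 for WT_NCD and WT_MCD. With 2 libraries in each of these groups, the crossed pairs must give the same size with the other sign, 0.102. This value therefore cannot show whether the numbers share more than a name. With the number as a replicate block, 3 members in KO_MCD against WT_MCD had an unadjusted p under 0.05 (2.31% of all genes), and no gene was called. On WT_NCD and WT_MCD alone the same-number replicate block gave 0 members and 369 genes (2.78%) at that p, and the crossed replicate block, added after the data were seen, 2 members and 665 genes (5.0%), with 0 called by either. The spread within groups limits what 2 and 3 libraries can show.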
